A study of Mus musculus with 6 samples.

Results

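The genes examined here are the embryonic and adult globins of the mouse together with Alas2, the erythroid enzyme that starts heme synthesis. They were taken by gene symbol from the deposited count table, in which 8 of 24470 rows carried one of the names. They comprise 3 embryonic globins (Hbb-y, Hbb-bh1 and Hba-x), 4 adult globins (Hba-a1, Hba-a2, Hbb-bs and Hbb-bt) and Alas2. RNA sequencing had been performed on testes at E12.5, in mid-gestation, from 3 control samples, genotype Ppp1r3c f/f, and 3 conditional knockout (cKO) samples, genotype Sf1-Cre Ppp1r3c f/f. Both groups therefore carried the floxed alleles, and they differed in the Sf1-Cre transgene, whose Nr5a1 promoter is active in somatic cells of the gonad. The mice were kept on a C57BL/6 background. For a sample, 2 pairs of gonads were pooled, so single embryos cannot be told apart within a sample. The product of Ppp1r3c targets a protein phosphatase to glycogen and favours its synthesis.

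Hemoglobin is built from alpha-like and beta-like chains, which are encoded in separate gene clusters. The first red cells of the embryo, the primitive erythroid cells of the yolk sac, use the embryonic genes Hba-x, Hbb-bh1 and Hbb-y, and within this lineage Hbb-bh1 gives way to Hbb-y as the cells mature. The adult genes are used by the definitive red cells that the fetal liver releases later, although primitive cells also make adult alpha chains. Red cells reach the gonad through its vessels, so the balance of embryonic and adult globin mRNA in a dissected testis reflects the blood it held, and it shifts with the age of the embryo.

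Within both clusters the embryonic genes lie upstream of the adult genes. In the mm10 coordinates of the deposited table, the beta cluster ran along the minus strand of chromosome 7, with Hbb-y at 103851754 to 103853207, Hbb-bh1 at 103841638 to 103843162, Hbb-bs at 103826523 to 103827928 and Hbb-bt at 103812524 to 103813923. The start of Hbb-bt lay 39.3 kb downstream of the start of Hbb-y. The alpha cluster ran along the plus strand of chromosome 11, with Hba-x at 32276600 to 32278116, Hba-a1 at 32283672 to 32284486 and Hba-a2 at 32296492 to 32297310, the last starting 19.9 kb downstream of Hba-x. Alas2 is on the X chromosome, at 150547417 to 150570622 on the plus strand.

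The sequences show which of these genes the counts can tell apart. The first 90 coding bases (GENCODE vM21, GRCm38) are printed for 1 adult gene and the embryonic genes of each locus, with capitals at the bases that differ from the adult gene.
Hbb-bs: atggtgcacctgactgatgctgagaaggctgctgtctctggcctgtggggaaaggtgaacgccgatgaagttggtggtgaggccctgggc
Hbb-bh1: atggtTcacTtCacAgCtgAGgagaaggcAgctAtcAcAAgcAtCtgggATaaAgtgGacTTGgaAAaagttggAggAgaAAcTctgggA
Hbb-y: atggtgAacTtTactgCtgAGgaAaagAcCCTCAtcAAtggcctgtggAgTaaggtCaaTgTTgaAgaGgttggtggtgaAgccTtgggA
Hba-a1: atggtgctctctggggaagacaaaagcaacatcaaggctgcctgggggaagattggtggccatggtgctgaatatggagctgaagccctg
Hba-x: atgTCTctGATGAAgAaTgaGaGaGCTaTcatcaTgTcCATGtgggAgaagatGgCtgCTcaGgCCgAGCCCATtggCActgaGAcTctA
In this stretch Hbb-bh1 differed from Hbb-bs at 29 bases and Hbb-y at 26, and Hba-x differed from Hba-a1 at 44. Over the whole coding sequence, Hbb-y was identical to Hbb-bs at 74.3% of the bases and to Hbb-bh1 at 76.4%. Hba-x was identical to Hba-a1 at 62.0%. The adult copies were nearly the same, since Hba-a1 and Hba-a2 differed at 1 of 429 coding bases, and Hbb-bs and Hbb-bt at 1 of 444. Of the 100-base windows of the Hba-a1 transcript, 56.5% had an exact copy in another of the 8 genes, and of those of Hbb-bs 62.6% had one. No such window of Hbb-y, Hbb-bh1, Hba-x or Alas2 had a copy in another of these genes. The division of reads between the adult copies is therefore uncertain, while among these 8 genes the embryonic ones shared no such stretch. Other genes and pseudogenes were not searched. The reads of the study were paired and each longer than these windows, so the share of read pairs common to the copies may be lower.

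The proximal promoters of 7 of the 8 genes were found in the RefSeq-based table (GRCm38.p6), which had no entry for Hbb-bh1. They are shown because KLF1, CCAAT-binding and GATA factors are the classical regulators of these genes. The 120 bases before the start of transcription are printed for 1 adult gene per locus, the embryonic genes and Alas2, with 3 motifs in capitals on either strand, namely CACCC (the core of KLF1 elements), the box CCAAT, and the GATA element GATAA.
Hbb-y: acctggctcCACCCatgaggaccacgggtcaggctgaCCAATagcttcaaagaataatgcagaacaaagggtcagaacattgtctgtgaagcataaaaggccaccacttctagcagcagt
Hbb-bs: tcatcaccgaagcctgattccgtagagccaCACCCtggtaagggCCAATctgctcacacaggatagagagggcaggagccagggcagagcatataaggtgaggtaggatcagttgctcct
Hba-x: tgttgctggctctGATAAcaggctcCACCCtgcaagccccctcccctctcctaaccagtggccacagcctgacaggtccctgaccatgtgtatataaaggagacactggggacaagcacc
Hba-a1: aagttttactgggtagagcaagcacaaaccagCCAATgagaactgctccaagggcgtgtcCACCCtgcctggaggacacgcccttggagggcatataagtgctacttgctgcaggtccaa
Alas2: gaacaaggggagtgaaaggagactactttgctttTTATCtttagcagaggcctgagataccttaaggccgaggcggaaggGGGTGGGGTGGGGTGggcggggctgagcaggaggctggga
These windows lie at chr7:103853208-103853327, chr7:103827929-103828048, chr11:32276480-32276599, chr11:32283552-32283671 and chrX:150547297-150547416, the first pair on the minus strand. CACCC, or its complement GGGTG, occurred in all 7 promoters found and in 31.7% of the 32851 promoters of the table. CCAAT, or ATTGG, occurred in Hbb-y and in all 4 adult globins, and in 21.3% of all promoters. GATAA, or TTATC, occurred in Hba-x and Alas2, and in 10.5% of all promoters. A match is only a run of letters and does not show that a factor was bound.

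The libraries held between 16139487 and 44145158 counts, with control replicate 1 the shallowest. Levels are given as CPM, counts relative to the library size after TMM scaling. The sources used here do not state that the pools of a group came from separate litters, so p-values measure the spread between these samples. The targeted gene Ppp1r3c was at 22.1 to 24.4 CPM in the control samples and at 4.71 to 5.96 CPM in the cKO samples. Xist, the RNA that silences an X chromosome in female cells, had 12534 counts in cKO replicate 3 (379 CPM) and 6 to 41 counts in each of the other libraries. The summed level of 4 genes on the Y chromosome was 219.8 CPM in cKO replicate 3 and 258 to 277 CPM in the others. Both Xist and Y-linked RNA were thus present in this pool, and whether it held XX tissue was not tested. The globin values that this library moved most are therefore also given without it. The summed level of 8 Sertoli cell genes, with Amh at the highest CPM, was 1364 to 1828 CPM. The summed level of 6 hepatocyte genes, with Afp at the highest CPM, which would mark pieces of liver, was 1.49 to 3.09 CPM. In bulk tissue, more red cells and more globin mRNA per red cell cannot be told apart.

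Globin mRNA was detected at high level in every testis sample, and it did not differ detectably between control and cKO testes. The 7 globins together were at 3343, 2691 and 2694 CPM in control replicates 1 to 3 and at 2352, 3016 and 3030 CPM in cKO replicates 1 to 3. Control replicate 1 was the highest and cKO replicate 1 the lowest, and the groups overlapped. The means were 2909.5 ± 375 CPM in control and 2799 ± 387 CPM in cKO samples (SD, n = 3 each), a difference of -0.06 on the log2 scale (two-sided exact permutation p 0.8, where 0.1 is the smallest that 3 against 3 samples allow). The sign of this difference turned when replicate 1 of either group was left out (0.046 without the control, 0.063 without the cKO sample), and no direction is read from it.

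**Figure D1:**
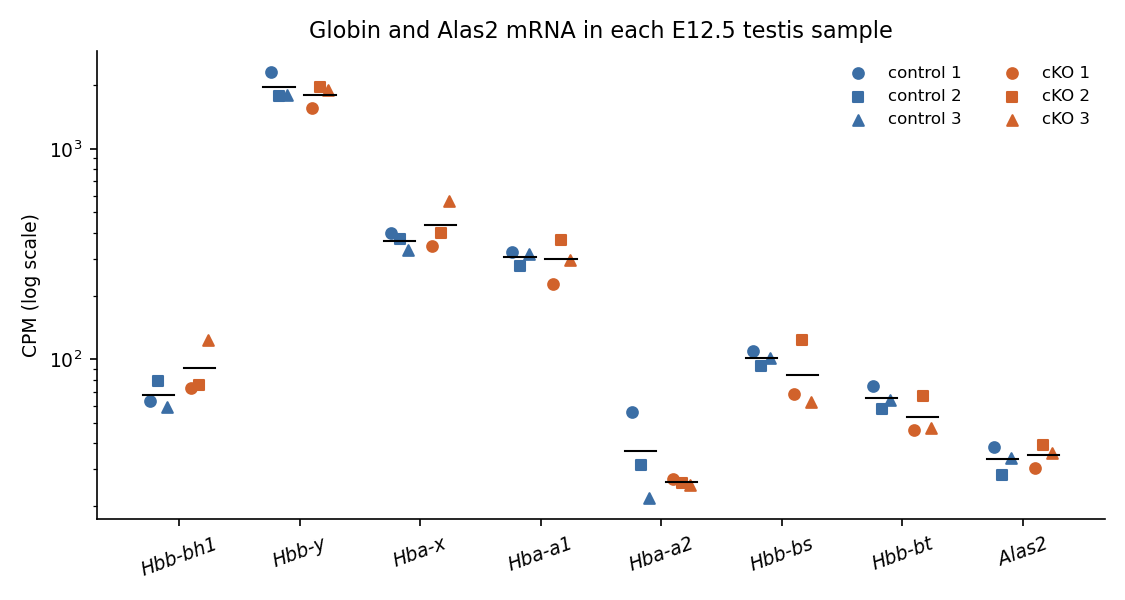
CPM (log scale) of the 7 globins and Alas2 in each sample, blue for control and orange for cKO, with 1 symbol per replicate number and a black line at the group mean. Hbb-y lies above all others in every sample, and for each gene the points of the groups overlap.

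The embryonic beta-like globin Hbb-y supplied most of the globin counts in every sample. It was at 2316, 1779 and 1801 CPM in the control samples and at 1566, 1956 and 1906 CPM in the cKO samples, and the highest and lowest samples were again replicate 1 of each group. Hbb-y took between 62.9% (95% Wilson interval 62.6 to 63.2) and 69.3% (68.9 to 69.7) of all globin counts, the interval covering counting error only. Its log2 fold change was -0.12 ± 0.116 (SE) at an edgeR FDR of 0.714, and it ranged from -0.194 without control replicate 2 to 0.016 without control replicate 1.

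Hbb-bh1, the embryonic beta-like globin used before Hbb-y, was at 63.5, 79.0 and 59.6 CPM in the control samples and at 72.8, 75.7 and 123 CPM in the cKO samples. cKO replicate 3 stood above all others, while the other cKO samples lay within the control range. The log2 fold change of 0.42 ± 0.191 (SE), at an edgeR p of 0.0532 and FDR of 0.443, was 0.14 without cKO replicate 3.

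Hba-x, the embryonic alpha-like globin, was likewise highest in cKO replicate 3. It was at 397, 373 and 329 CPM in control testes and at 345, 398 and 568 CPM in cKO testes. The other cKO samples lay within or just above the control range. The log2 fold change was 0.26 ± 0.158 (SE) at an edgeR FDR of 0.560, and 0.021 without cKO replicate 3.

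The adult beta-globins Hbb-bs and Hbb-bt were lowest in cKO replicates 1 and 3. Hbb-bs was at 109.9, 92.7 and 102 CPM in the control samples and at 68.2, 123 and 62.7 CPM in the cKO samples. Hbb-bt was at 75.0, 57.8 and 63.9 CPM in control and at 46.2, 67.0 and 47.0 CPM in cKO samples. Both genes were thus below every control sample in cKO replicates 1 and 3 and above at least some of the control samples in cKO replicate 2. The log2 fold changes were -0.26 (SE 0.218, edgeR FDR 0.674) for Hbb-bs and -0.29 (SE 0.147, edgeR FDR 0.480) for Hbb-bt. That of Hbb-bs ranged from -0.63 without cKO replicate 2 to -0.08 without cKO replicate 3. That of Hbb-bt ranged from -0.49 without cKO replicate 2 to -0.19 without control replicate 1.

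The adult alpha-globin Hba-a1 was at 325, 279 and 316 CPM in the control samples and at 227, 369.5 and 298 CPM in the cKO samples, with cKO samples at both ends of the range. Its log2 fold change was -0.04 ± 0.147 (SE) at an edgeR FDR of 0.936. Its near-identical copy Hba-a2 was at 56.1, 31.5 and 21.9 CPM in control and at 27.1, 25.9 and 25.2 CPM in cKO samples. The log2 fold change of Hba-a2 was -0.46 ± 0.268 (SE) at an edgeR FDR of 0.539, and it was -0.035 without control replicate 1. The count ratio of Hba-a1 to Hba-a2 varied from 5.80 to 14.4 among samples. Copies of such likeness cannot be measured separately with confidence.

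Alas2, which supplies the heme precursor in red cells, was at 38.4, 28.3 and 33.9 CPM in the control samples and at 30.3, 39.0 and 35.7 CPM in the cKO samples. The groups overlapped throughout, and the log2 fold change was 0.07 ± 0.122 (SE) at an edgeR FDR of 0.860. The highest Alas2 levels were in cKO replicate 2 and control replicate 1, which also held the most adult globin mRNA.

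Across all 8 genes, edgeR called 0 at an FDR below 0.05, and DESeq2 also called 0. edgeR called 0.0385% of the 15577 genes tested (0.0321% higher and 0.00642% lower in cKO), and DESeq2 called 0.779% of the genes to which it gave an adjusted p (0.4% higher and 0.379% lower). The lowest DESeq2 FDR of the 8 was 0.394. At an unadjusted p under 0.05 edgeR had 0 of the 8 genes, against 11.4% of all genes (5.56% higher and 5.8% lower). The groups did not overlap for 0 of the 8, against 15.6% of all genes tested (8.42% higher and 7.17% lower). The log2 fold changes lay between -0.46 and 0.42, with 3 above 0 and 5 below 0, against 49.1% and 50.9% of all genes. The 4 adult globins were all below 0 (median -0.27), and Hbb-bh1 and Hba-x among the embryonic globins were above 0. The median of all genes tested was -0.0034. None of these differences passed the test, and their intervals do not show that the levels were equal.

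**Figure D2:**
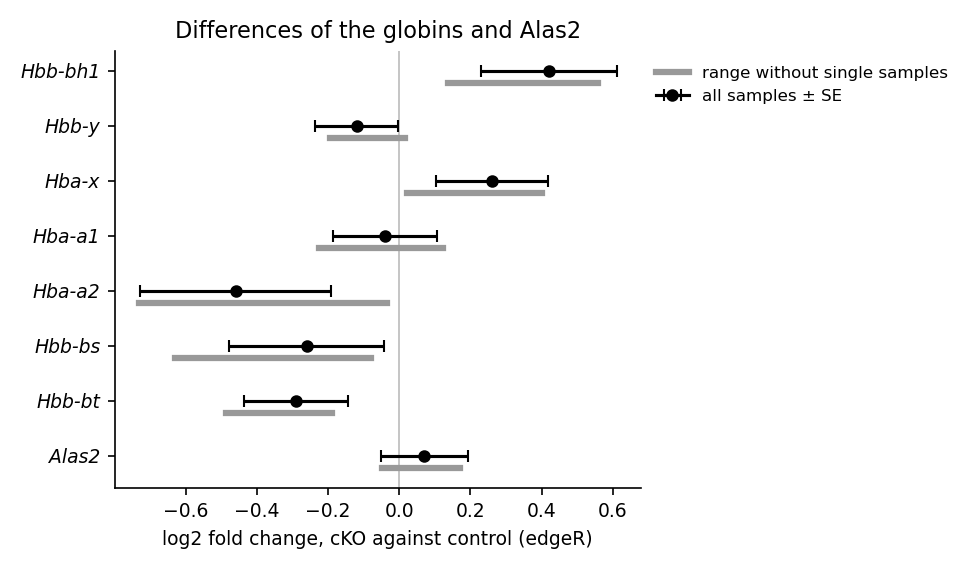
Log2 fold change of cKO against control testes for each gene (black points, edgeR, bars ± SE), with the range obtained when single samples were left out (gray bars). Every FDR was 0.443 or higher, and the range without single samples crosses 0 for Hbb-y, Hba-a1 and Alas2.

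To compare levels between genes, CPM were divided by the length of the longest coding transcript. Over the 6 samples Hbb-y was at 2982 ± 394 CPM per kilobase, 5.95 times the level of Hba-x (501 ± 107, SD, n = 6 each). Hba-a1 followed at 433 ± 68.6. The ranges of Hba-x and Hba-a1 overlapped, and Hba-x was the higher in 4 of 6 samples. Hba-a1 lay 2.92-fold above the next gene, with no overlap. Hbb-bs was at 148 ± 37.8, Hbb-bh1 at 129 ± 37.3, Hbb-bt at 84.6 ± 16.2 and Hba-a2 at 56.5 ± 22.7 CPM per kilobase, and within these 4 genes each range overlapped with the next. Alas2 was last, at 16.8 ± 2.10 CPM per kilobase, with a range that did not reach that of Hba-a2. For the adult copies these levels rest on reads that could be assigned to 1 of them.

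**Figure D3:**
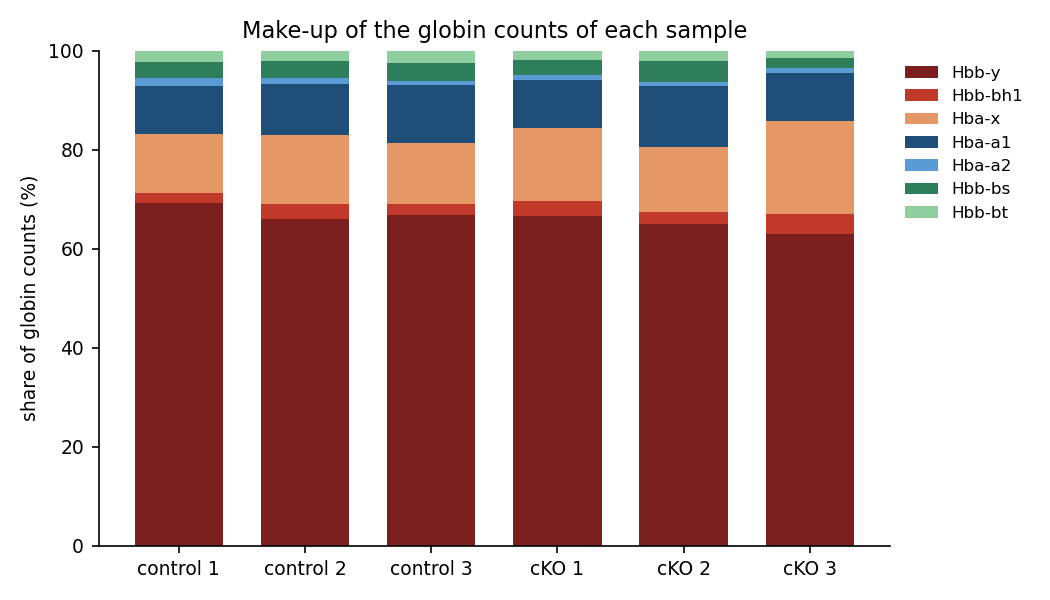
Share of each gene in the globin counts of a sample (percent, stacked to 100, 1 bar per sample). Hbb-y fills most of each bar, and cKO 3 holds the largest shares of Hba-x and Hbb-bh1 and the smallest of Hbb-bs and Hbb-bt.

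The ratio of embryonic to adult globin was then taken within each library as a hint of embryonic stage, since it needs no scaling between libraries. Embryonic counts exceeded adult counts in every sample. Reads shared by the near-identical adult copies may be missing from the counts, which would raise the ratio of embryonic to adult counts. The ratio of the 3 embryonic to the 4 adult genes was 4.90, 4.84 and 4.35 in control testes and 5.38, 4.15 and 6.0 in cKO testes. The cKO samples lay on both sides of the controls, with cKO replicate 3 the highest of all and cKO replicate 2 the lowest. The means were 4.70 ± 0.303 and 5.18 ± 0.944 (SD, n = 3 each), and the difference in log2 ratio was 0.13 (two-sided exact permutation p 0.5). Without cKO replicate 3 it was 0.011, and without cKO replicate 2 it was 0.278.

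Both loci were then read separately. At the beta locus the ratio of Hbb-y plus Hbb-bh1 to Hbb-bs plus Hbb-bt was 12.9, 12.3 and 11.2 in control and 14.3, 10.7 and 18.5 in cKO samples. At the alpha locus the ratio of Hba-x to Hba-a1 plus Hba-a2 was 1.04, 1.20 and 0.975 in control and 1.36, 1.01 and 1.76 in cKO samples. Which of the alpha genes prevailed is therefore open, as counts of the adult copies may be incomplete. cKO replicates 3 and 1 had the highest ratios at both loci. The differences in log2 ratio were 0.22 at the beta locus (two-sided exact permutation p 0.5) and 0.33 at the alpha locus (p 0.3), and both were smaller without cKO replicate 3, at 0.028 and 0.13. Without cKO replicate 2 they were 0.425 and 0.533. When geometric means were used, so that each gene had the same weight, they were 0.456 (exact permutation p 0.2) and 0.448 (p 0.1, the smallest possible). The cKO replicate 3 ratio was 1.52 times the control mean at the beta locus and 1.64 times at the alpha locus.

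The ratio of Hbb-y to Hbb-bh1 follows the maturation of primitive red cells and involves no adult gene. It was 36.5, 22.5 and 30.2 in control testes and 21.5, 25.8 and 15.5 in cKO testes. cKO replicate 3 was the lowest and control replicate 1 the highest, and cKO replicate 2 lay within the control range. The difference in log2 ratio was -0.51 (two-sided exact permutation p 0.2), and -0.31 without cKO replicate 3. Adjusted over the 4 ratios, every exact permutation p was 0.5. With 3 samples a group no exact permutation p can fall below 0.1. The test therefore cannot decide whether the stage hint differed between genotypes. The spread among cKO samples was wider than among controls for the 3 embryonic to adult ratios.

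**Figure D4:**
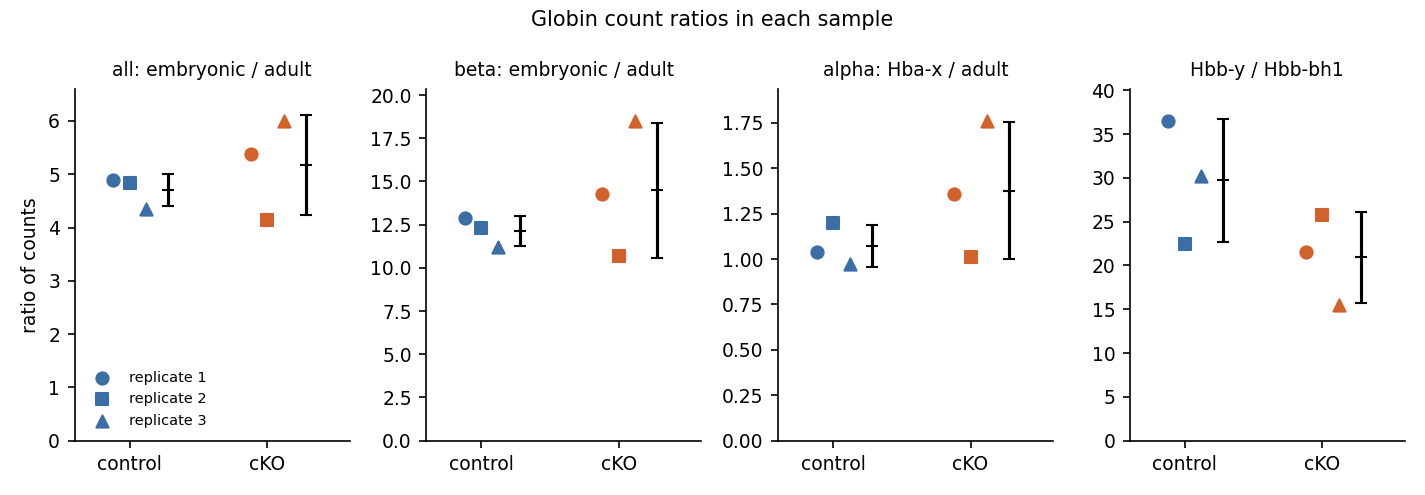
Count ratios within each sample for 4 globin comparisons, with symbols for replicates and bars for the group mean ± SD (n = 3). The cKO 3 triangle is the highest in the 3 embryonic to adult panels and the lowest in the panel of Hbb-y over Hbb-bh1.

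To set the globin ratio beside the tissue, genes known to change in the testis around this age were read in the same samples. Cyp17a1, Hsd3b1 and Star, genes of steroid synthesis in fetal Leydig cells, rise after sex determination. Hsd3b1 was at 94.4, 118 and 151 CPM in the control samples and at 99.6, 142 and 60.4 CPM in the cKO samples. The samples of lowest globin ratio, cKO replicate 2 and control replicate 3, had the highest Hsd3b1 levels, and cKO replicate 3 had the lowest. Since cKO replicate 3 is the library with high Xist, stage and tissue make-up cannot be told apart in its Leydig gene levels. Over the 6 samples, Pearson's r between the log2 globin ratio and log2 CPM was -0.94 for Hsd3b1 (exact permutation p 0.0167), -0.90 for Star (p 0.0278) and -0.86 for Cyp17a1 (p 0.0361). Spearman's rho was -0.89 for each of these genes (exact permutation p 0.0333). They ranked the samples in the same order, so the equal values of rho are a single observation repeated and not independent results.

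The relation was examined for 6 genes and did not pass adjustment over them, with an adjusted exact permutation p of 0.0722 for Pearson's r and 0.0666 for Spearman's rho in these 3 genes. Without cKO replicates 3 and 2, the samples farthest from the median ratio, r was -0.84, -0.78 and -0.73 in the 4 samples left, in the same order of genes. Without cKO replicate 3 alone it was -0.87, -0.76 and -0.68. It was negative within each group, at -0.92, -0.97 and -0.88 over the 3 control testes and at -0.95, -0.90 and -0.90 over the 3 cKO testes. These small sets allow no test. Insl3, another Leydig gene, had an r of -0.81 (exact permutation p 0.0667), the Sertoli cell gene Ptgds -0.60 (p 0.197), and Sry, which falls after sex determination, 0.47 (p 0.364). Without the farthest samples r was -0.67 for Insl3, 0.93 for Sry and -0.08 for Ptgds, so that for Ptgds the relation rests on those samples. With only cKO replicate 3 left out, r was -0.52 for Insl3, 0.43 for Sry and -0.04 for Ptgds. Within the controls r was -0.37, 0.95 and 0.62 in that order, and within the cKO samples -0.89, 0.3 and -0.89. The r of these genes thus varied with the samples used. The relation was tested after these values had been seen. Sry was at 1.48, 2.15 and 0.366 CPM in control and at 2.99, 2.47 and 2.51 CPM in cKO samples, from 15 to 120 counts per library. Its groups did not overlap, as for 15.6% of all genes tested. The log2 fold change of Sry was 1.01 ± 0.474 (SE) at an edgeR FDR of 0.454. Of the 6 genes, Sry was the 1 above 0, and 5 were below 0.

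**Figure D5:**
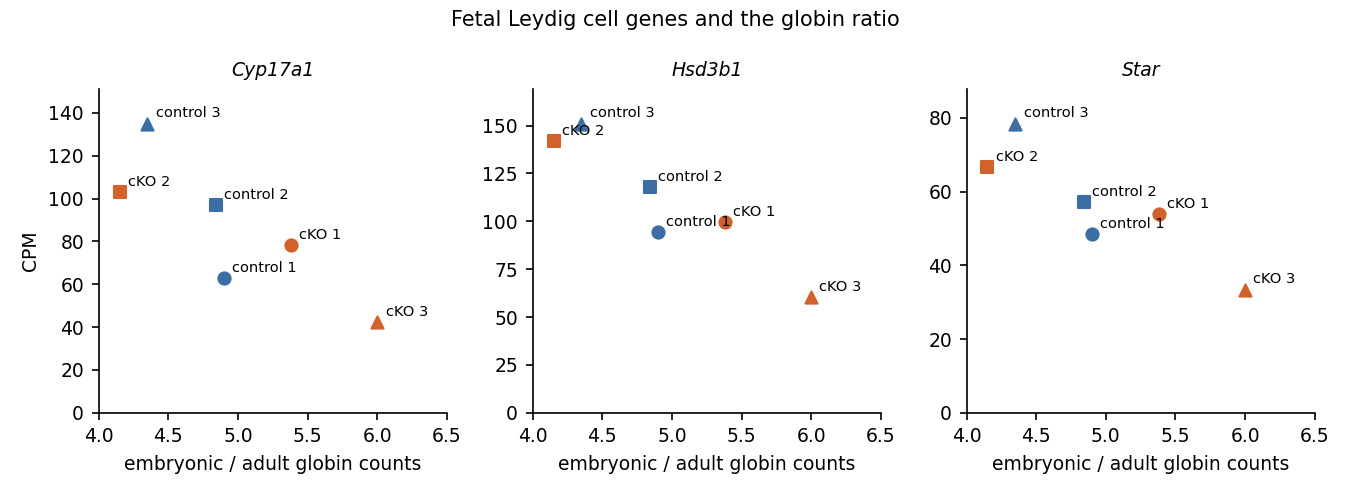
CPM of 3 fetal Leydig cell genes against the ratio of embryonic to adult globin counts, 1 labelled point per sample, blue for control and orange for cKO. cKO 3 lies at the lower right and control 3 and cKO 2 at the upper left of each panel. cKO 3 is the library with high Xist.

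cKO replicate 3, the library with high Xist, also stood apart from the others in its pre-granulosa genes. The summed level of 6 pre-granulosa genes, which mark supporting cells of the ovary, was 268 CPM in that library and between 82.8 and 100.2 CPM in the others, and its part in the globin ratios was not tested. Each of the 6 genes was highest there. Wnt4, the gene of highest CPM in that list, reached 138 CPM there, against 45.5 to 59.0 CPM in the other libraries. Foxl2 and Fst were named after their values were seen. In cKO replicate 3 Foxl2 was at 7.56 CPM, against 0.431 to 1.22 CPM elsewhere. Fst was at 50.9 CPM, against 0.366 to 2.02 CPM. Endothelial genes, which mark the vessels that carry the blood, summed to 751 to 839 CPM in control and 733 to 858 CPM in cKO samples, with Cdh5 at the highest CPM. Macrophage genes, led by Csf1r, summed to 52.1 to 61.7 CPM in control and 56.2 to 58.0 CPM in cKO samples. Germ cell genes, led by Dazl, summed to 472 to 758 CPM in control and 236 to 491 CPM in cKO samples, and mesonephros genes, led by Wt1, to 419.6 to 467 CPM and 494 to 619 CPM.

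Other genes of red cells and platelets were read from 7 lists. Of 77 tested genes, the 8 above left out, edgeR called 0 at an FDR below 0.05, against 0.0385% of all genes. At an unadjusted p under 0.05 there were 8 (10.4%), against 11.4% of all genes. Of these, 7 were higher in cKO and 1 lower, against 5.56% higher and 5.8% lower of all genes. The lower gene was Myb, with a log2 fold change of -0.49 (edgeR p 0.0308, FDR 0.403). The groups did not overlap for 13 (16.9%), against 15.6%. Of the 77 genes, 45 were above 0 and 32 below 0, with a median of 0.02.

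Among the other globins, cytoglobin (Cygb), which is made outside red cells, was highest at 30.7 to 42.7 CPM. The other globin-like genes read from the alpha and beta clusters were nearly silent, with 0 to 4 counts per library for Hbb-bh2, 7 to 26 for Hbq1b and 1 to 7 for Hbq1a. Hbq1b had a log2 fold change of 0.29 ± 0.322 (SE) at an edgeR FDR of 0.756, or 0.094 without cKO replicate 3.

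The 9 genes of heme synthesis, Alas2 among them, summed to 449 to 475 CPM in control and 448 to 487 CPM in cKO samples. None was called, and the log2 fold changes lay between -0.07 and 0.10. Alas1, the form of the first enzyme used in all tissues, had the highest CPM. Alad, the next enzyme of the pathway, was the gene of lowest p and had a log2 fold change of 0.10 ± 0.0770 (SE) at an edgeR FDR of 0.631. It ranged from 0.052 without cKO replicate 3 to 0.162 without control replicate 2.

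The erythroid transcription factors had 0 of 13 genes called, with a median log2 fold change of 0.08. The gene of lowest p was Runx1, which is needed for the first definitive blood cells and is also expressed outside blood. It was at 13.3, 17.7 and 9.08 CPM in control and at 22.5, 18.3 and 33.4 CPM in cKO samples, a log2 fold change of 0.89 ± 0.260 (SE) at an edgeR FDR of 0.377. Its groups did not overlap, as for 15.6% of all genes tested, and cKO replicate 3 was the highest. The gene of highest CPM in the list, Ldb1, which bridges distant control elements and globin promoters, had a log2 fold change of 0.02 ± 0.0594 (SE) at an edgeR FDR of 0.934. A further pair of factors of this list, chosen after their values were seen, were low in every sample, with Klf1 at 2.22 to 3.39 CPM and Gata1 at 1.38 to 2.54 CPM.

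Regulators of the globin switch had 0 of 9 genes called and a median of 0.07. Sox6, which represses Hbb-y in definitive red cells but is also expressed in other tissues, was at 61.4, 56.5 and 53.7 CPM in control and at 62.2, 68.7 and 71.0 CPM in cKO samples. Every cKO sample lay above every control sample, as for 8.42% of all genes tested. The log2 fold change was 0.24 ± 0.0757 (SE) at an edgeR FDR of 0.377. Hmga2, at the highest CPM of the list, had a log2 fold change of 0.27 ± 0.101 (SE) at an edgeR FDR of 0.388, or 0.163 without control replicate 3. These genes are expressed far more widely than globins, and their counts here cannot be assigned to red cells.

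Genes of the red cell membrane and blood groups had 0 of 20 called and a median of 0.04. Gypc, a membrane glycoprotein gene, was the gene of lowest p and had a log2 fold change of 0.23 ± 0.0721 (SE) at an edgeR FDR of 0.377. Epb41, which links the membrane to the spectrin skeleton, had the highest CPM and a log2 fold change of 0.13 ± 0.0532 (SE) at an edgeR FDR of 0.411. The anion exchanger gene Slc4a1, chosen after its values were seen, was at 58.6, 57.0 and 59.8 CPM in control and at 54.0, 67.7 and 74.4 CPM in cKO samples, with overlapping groups.

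Genes of iron handling, oxygen and red cell maturation had 0 of 17 called by edgeR and a median of 0.03. Slc25a37, which imports iron into mitochondria for heme, was at 44.6, 45.8 and 40.5 CPM in control and at 56.4, 49.4 and 61.1 CPM in cKO samples. Its groups did not overlap, as for 15.6% of all genes tested. The log2 fold change was 0.35 ± 0.0886 (SE) at an edgeR FDR of 0.377. DESeq2 called this gene (FDR 0.0435), the 1 gene of the 77 that it called, against 0.779% of all genes given an adjusted p. Prdx2, an abundant red cell peroxidase that other cells also make, had a log2 fold change of 0.0066 ± 0.0570 (SE) at an edgeR FDR of 0.977.

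Platelet and megakaryocyte genes had 0 of 9 called and a median of -0.11. Their summed level was 35.2 to 39.8 CPM in control and 33.5 to 42.4 CPM in cKO samples. Itga2b, an integrin gene of platelets, had the highest CPM and a log2 fold change of 0.02 ± 0.104 (SE) at an edgeR FDR of 0.973. Gp9, a platelet surface gene, was the gene of lowest p and had a log2 fold change of -0.23 ± 0.239 (SE) at an edgeR FDR of 0.729, or -0.059 without control replicate 1.

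The genes whose pattern over the 6 samples was most like the mean of the 8 members were Slc35a2, Bcl7c, Ap4m1, Gimap6, Mtif3, Necap2, Acot8, Cplx2, Acads and Spsb2. Pearson's r was 0.975 to 0.985, out of 11533 genes searched with a mean of at least 5 CPM. Genes of the blood lists made up 0.486% of the genes searched (56 genes), so their absence from these 10, and from the 100 most alike, is no result. The median r with the mean of the members was 0.226 over the blood list genes and -0.0094 over all genes searched. The genes most like the log2 embryonic to adult ratio were Rimkla, Dusp22, Ptpmt1, Rnf126 and Cfap97, with r from 0.968 to 0.995. Of the 100 genes most like this ratio 2 were in a blood list, and the median r was 0.15 over the blood list genes and 0.076 over all. These correlations over 6 samples describe likeness only and carry no test.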

How the data were processed

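RNA from testes at E12.5 had been sequenced from stranded mRNA libraries. The deposited values were raw counts per gene. The authors aligned read pairs to mm10 with STAR, and counted them per RefSeq gene with featureCounts (Subread 1.5.0-p1) by strand. The methods name no option for reads that match several places, so counts of near-identical copies may be incomplete. Samples were grouped by their titles.

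The whole table was fitted with edgeR 4.0.16 in R 4.3.3 (filterByExpr with a minimum count of 10, TMM, quasi-likelihood test between the groups, Benjamini-Hochberg adjustment over 15577 genes), which was checked on simulated data. Log2 CPM used a prior count of 2. SE was derived from the F statistic. Ratios were compared by exact permutation (SciPy 1.17.1). Lengths were taken from GENCODE vM21, as the table gives none. DESeq2 1.42.0, limma-voom (limma 3.58.1) and other settings served as alternatives. Named in each blood list were the most abundant gene and that of lowest p, and in other lists the most abundant gene. The 10 and 5 genes most alike were also named. Members and lists were chosen with earlier results of these data known. Replicate numbers come from the titles, which state no shared litter or day.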

Additional observations from a re-analysis of the deposited data

How the results depend on the processing

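None of the 8 genes was called under any of the 13 alternatives, in which 0 members passed an FDR of 0.05. Over all genes edgeR called 6, DESeq2 111, and edgeR without single samples 2 to 8. It called 3 with the replicate number as a block. Samples of the same number did not deviate together (correlations of -0.20, -0.27 and -0.13), which gives no ground for pairing, and the block changed no call of a member. The 1 blood list gene called by DESeq2 was Slc25a37, and the count was 0 elsewhere.

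Weighting each gene equally (geometric means) moved the difference in the log2 embryonic to adult ratio from 0.13 to 0.438 (exact permutation p 0.2), at the beta locus from 0.22 to 0.456 (p 0.2) and at the alpha locus from 0.33 to 0.448 (p 0.1, the smallest that 3 against 3 samples allow). By construction this gives the highest genes less weight. Without the adult alpha copies, a setting chosen after the data were seen, it was 0.278. Without single samples it ranged from 0.011 to 0.278, the beta-locus difference from 0.028 to 0.425, the alpha-locus difference from 0.13 to 0.533 and the Hbb-y to Hbb-bh1 difference from -0.696 to -0.307. The summed globin difference ranged from -0.12 to 0.063.

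Signs of values near 0 turned without single samples, over ranges of -0.194 to 0.016 (Hbb-y), -0.225 to 0.123 (Hba-a1), -0.0495 to 0.17 (Alas2), -0.121 to 0.103 (Cygb, also 0.0117 by limma-voom), -0.147 to 0.0055 (Alas1), -0.0239 to 0.0545 (Ldb1), -0.0428 to 0.0339 (Prdx2) and -0.0735 to 0.0597 (Itga2b). The cause was not tested. Depth was lowest in control replicate 1, and 3 samples a group limit what exact tests can show.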

Other observations

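The balance of alpha-like to beta-like globin counts was read after the data had been seen. Alpha-like genes took 23.3%, 25.4% and 24.8% of the globin counts in control replicates 1 to 3, and 25.5%, 26.3% and 29.4% in cKO replicates 1 to 3. Every cKO sample lay above every control sample, but the nearest pair, control replicate 2 (95% Wilson interval 25.1 to 25.6) and cKO replicate 1 (25.2 to 25.7), agreed within counting error. Hba-x supplied the high value of cKO replicate 3, since it took 18.8% of the globin counts there and 11.9% to 14.7% elsewhere. The adult alpha genes in this balance are near-identical copies.

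The gene Hemgn, a nuclear factor gene of red cell precursors named after its values were seen, was at 1.23, 2.26 and 1.32 CPM in control and at 3.04, 2.61 and 2.51 CPM in cKO samples. The groups did not overlap, as for 15.6% of all genes tested, with a log2 fold change of 0.73 ± 0.260 (SE) at an edgeR FDR of 0.382.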
